A study of Homo sapiens with 8 samples.

Results

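The 36 genes described here encode the BCL2 family, the death receptors with their adaptors, the caspases and the proteins that switch caspases on or off. They were taken by name, as the entries whose gene symbol equalled a listed symbol, and all 36 were found among the 16796 genes of the count files. BIK, a BH3-only gene, had a total of 2 counts over the 8 libraries and was not tested, which left 35 genes. Messenger RNA had been measured by strand-specific, paired-end sequencing in LX-2 cells, an established line of human hepatic stellate cells, the cells that become the collagen-producing myofibroblasts of the injured liver. All cells grew in medium with 5% fetal bovine serum. The Control group received the vehicle DMSO, and the OGTi group received 50 µM OSMI-1, an inhibitor of O-GlcNAc transferase (OGT), for 24 h. There were 4 biological replicates per group, each with its own library, and since LX-2 is a single line, they are replicate cultures of that line and not donors.

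Cells carry a mitochondrial and a receptor-driven route to apoptosis. In the mitochondrial route, BH3-only proteins sense stress and bind the anti-apoptotic members of the BCL2 family, which otherwise restrain the pore-forming members BAX and BAK1. Pores release cytochrome c, which assembles APAF1 and CASP9 into the apoptosome. In the receptor-driven route, ligands of the TNF family bind death receptors, which recruit FADD and CASP8. Apoptosis of activated stellate cells is known as a way in which liver fibrosis resolves. Transcripts of these genes report the supply of the machinery, not the activity of the proteins, many of which are controlled by binding, cleavage or phosphorylation.

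The libraries held 24166756 to 28201215 counts, and 12829 to 13180 genes per library reached 10 counts. The first principal component of the 500 most variable genes held 83.8% of the variance and separated the groups, with Control replicate 3 at -22.3 against -17.4 to -16.5 for the other Control libraries and 17.0 to 20.9 for the OGTi libraries. The labels named no batch. Of 12 stellate cell and myofibroblast markers, all 12 were present, with DES at no more than 4.16 normalized counts and a summed level of 237784 to 278366 normalized counts in Control and 172626 to 199083 in OGTi libraries. Of 7 hepatocyte markers SERPINA1 could be tested, at 19.5 to 74.0 normalized counts, and APOA1 had a total of 1 count. The other 5 were not found by symbol among the counted genes. The leukocyte and Kupffer cell list summed to 2441 to 4043 in Control and 5536 to 9325 in OGTi libraries, nearly all of it CD68, a lysosomal gene, while the leukocyte gene PTPRC reached at most 11.5. Its part in the results was not tested, and in bulk RNA fewer cells of a type and less RNA per cell cannot be told apart. OGT itself, the target of the inhibitor, was lower in OGTi libraries by a log2 fold change of -0.45 ± 0.09 (standard error, DESeq2 q of 1.48e-06).

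OGTi cells had more transcript of the BH3-only genes BCL2L11, BBC3 and PMAIP1, of the receptor gene TNFRSF10B and of the caspase genes CASP9 and CASP4. Smaller rises were called for the anti-apoptotic gene MCL1, for BCL2L13 and for the receptor adaptor genes FADD and TRADD. OGTi cells had less of the BH3-only gene BID, of the pore-forming genes BOK and BAX, of APAF1, the partner of CASP9, and of the inhibitor of apoptosis BIRC2. The largest change was that of BCL2L11, which was 3.12-fold higher. DESeq2, with replicate number as a block, called 15 of the 35 tested genes at a q (the p-value adjusted by Benjamini-Hochberg over 14028 genes) of 0.05 or lower. This share of 42.9% lay near the background, since 46.6% of all genes with a q were called. By direction, 10 of the 35 (28.6%) were called higher against 22.7% of all genes, and 5 (14.3%) were called lower against 24% of all genes. The median log2 fold change was 0.10 over the 35 genes and 0.00 over all genes, and the median absolute change was 0.27 against 0.31, so as a group these genes were about as responsive as the rest of the transcriptome. Each of the 15 moved in the same direction in 4 of 4 pairs of libraries with the same replicate number, as did 96.3% of all called genes.

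Changes of at least 0.5 on the log2 scale, in the same direction in 4 pairs, were called for 6 genes that rose (17.1%, against 11.5% of all genes) and for 1 that fell, BOK (2.86%, against 12.3%). All 4 OGTi libraries lay above all 4 Control libraries for 10 genes (28.6%, against 19.8%) and below them for 5 (14.3%, against 20.2%). FADD, APAF1 and BIRC2 were called with groups that overlapped, and the other called genes of the list had groups that did not. Leaving out replicate 1, 2, 3 or 4 left 10, 8, 7 and 8 genes called higher and 5, 4, 4 and 3 called lower. Over all genes the same fits called 5690, 5127, 5276 and 5130, against 6541 with all replicates.

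**Figure D1:**
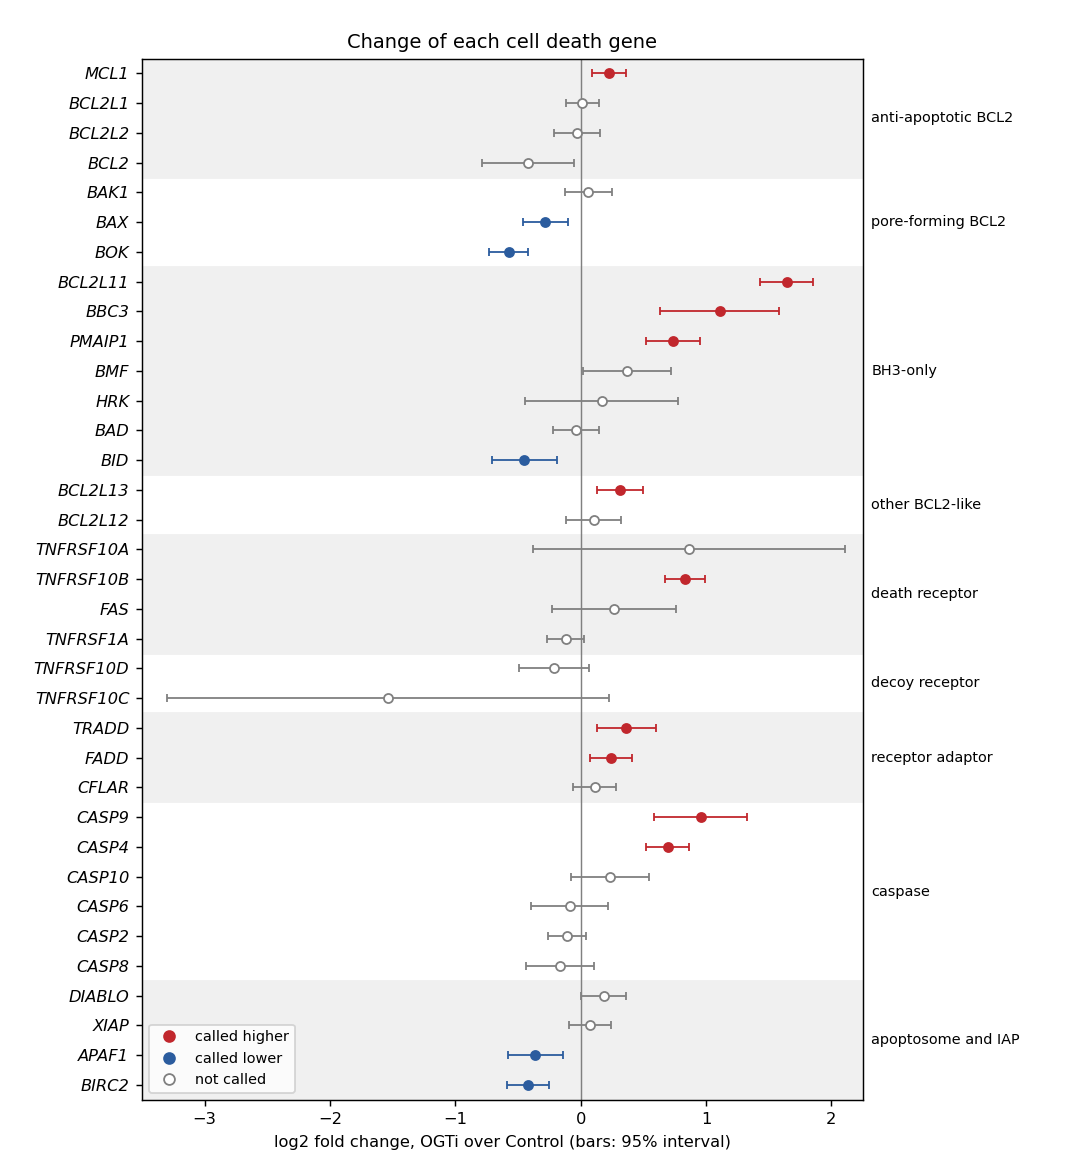
Log2 fold change of OGTi over Control for the 35 tested genes, grouped by role, with points for the DESeq2 estimate, bars for the 95% interval and colour for genes called at a q of 0.05 or lower. BCL2L11 lies farthest to the right at 1.64, and the widest interval belongs to TNFRSF10C, which had few counts.

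Start-site sequences (250 bases before to 50 after the first listed start of each gene, RefSeq, build GRCh38.p14) were on hand for 27 of the 36 genes. Other annotated starts, where a gene has them, were not read. Of the 7 genes called with a change of at least 0.5, 6 had such a sequence, and all 6 are shown so that the genes that rose and BOK, which fell, can be compared. Capitals mark matches to the GC box GGGCGG and to the FOXO element TGTTTAC on either strand. They are BCL2L11 on chr2:111120664-111120963 (plus strand), BBC3 on chr19:47232618-47232917 (minus strand), PMAIP1 on chr18:59899746-59900045 (plus strand), CASP9 on chr1:15524166-15524465 (minus strand), CASP4 on chr11:104968525-104968824 (minus strand) and BOK on chr2:241558495-241558794 (plus strand).
BCL2L11: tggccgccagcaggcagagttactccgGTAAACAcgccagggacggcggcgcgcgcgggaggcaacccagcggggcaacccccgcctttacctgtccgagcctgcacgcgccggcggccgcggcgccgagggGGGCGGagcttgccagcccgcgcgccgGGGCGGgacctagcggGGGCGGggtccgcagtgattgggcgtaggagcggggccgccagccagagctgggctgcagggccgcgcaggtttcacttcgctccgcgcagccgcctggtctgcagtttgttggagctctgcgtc
BBC3: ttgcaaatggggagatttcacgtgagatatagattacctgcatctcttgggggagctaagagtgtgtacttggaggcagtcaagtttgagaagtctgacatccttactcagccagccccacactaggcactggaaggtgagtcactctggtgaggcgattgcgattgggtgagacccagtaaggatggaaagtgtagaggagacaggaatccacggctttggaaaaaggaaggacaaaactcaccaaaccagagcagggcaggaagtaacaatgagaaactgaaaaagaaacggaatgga
PMAIP1: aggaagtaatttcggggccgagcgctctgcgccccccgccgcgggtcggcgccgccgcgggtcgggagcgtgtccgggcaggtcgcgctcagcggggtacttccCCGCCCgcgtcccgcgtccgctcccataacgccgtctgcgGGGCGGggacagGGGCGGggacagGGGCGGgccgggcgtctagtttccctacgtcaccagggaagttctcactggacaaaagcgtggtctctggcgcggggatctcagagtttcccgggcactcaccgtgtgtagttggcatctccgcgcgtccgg
CASP9: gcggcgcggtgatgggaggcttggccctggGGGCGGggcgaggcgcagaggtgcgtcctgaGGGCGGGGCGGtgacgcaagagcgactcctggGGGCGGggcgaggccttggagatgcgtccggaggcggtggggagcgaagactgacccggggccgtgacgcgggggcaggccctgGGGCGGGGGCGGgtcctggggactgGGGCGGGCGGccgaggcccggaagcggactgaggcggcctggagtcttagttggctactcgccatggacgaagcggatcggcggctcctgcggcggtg
CASP4: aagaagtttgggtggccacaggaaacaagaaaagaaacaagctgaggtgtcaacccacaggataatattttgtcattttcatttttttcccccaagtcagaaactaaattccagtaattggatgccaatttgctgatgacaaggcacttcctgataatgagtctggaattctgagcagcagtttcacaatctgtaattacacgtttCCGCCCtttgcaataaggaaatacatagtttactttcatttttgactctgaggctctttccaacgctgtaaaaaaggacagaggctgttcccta
BOK: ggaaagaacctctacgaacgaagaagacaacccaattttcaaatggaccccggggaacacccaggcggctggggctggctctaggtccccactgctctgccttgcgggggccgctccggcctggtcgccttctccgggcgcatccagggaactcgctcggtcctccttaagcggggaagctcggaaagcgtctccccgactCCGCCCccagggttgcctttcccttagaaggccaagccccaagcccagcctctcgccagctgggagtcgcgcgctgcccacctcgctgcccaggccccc

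The 6 sequences differed in composition. G and C made up 76.0% of the CASP9 sequence, 74.7% of that of BCL2L11, 71.3% of that of PMAIP1, 66.7% of that of BOK, 48.0% of that of BBC3 and 39.7% of that of CASP4. The CASP9 sequence held 8 GC boxes, some of them overlapping, that of PMAIP1 held 4, that of BCL2L11 held 3, those of CASP4 and BOK held 1 each, and that of BBC3 held 0. A GC box was found in 22 of the 27 sequences (81.5%) and in 44.6% of 27305 promoters of the same length, and genes that rose, fell and did not pass the test were among those that held it. The 27305 promoters were not limited to genes measured here, so the 2 shares are not matched for expression. The FOXO element occurred in 1 of the 27, that of BCL2L11, from base -223 to base -217 counted from the start site (3.7%, against 3.41% of all promoters). The C/EBP-ATF element TGATGNAA occurred in 1, HRK (3.7%, against 3.67%), and the E2F element TTTNGCGC in 1, BCL2L1 (3.7%, against 1.83%). Both strands were searched, and a match describes the letters of this window only.

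The BH3-only genes held the largest rises. Of the 7 that were tested, 3 rose, 1 fell and 3 did not pass the test. BCL2L11 (chromosome 2, 111119378 to 111168444, GRCh38) encodes BIM, a strong BH3-only protein that binds all the main anti-apoptotic members. Its normalized counts were 349.7, 386, 316 and 386 in Control replicates 1 to 4 and 1089, 1061, 1106 and 1234 in OGTi replicates 1 to 4. The lowest OGTi library thus lay far above the highest Control library, and the gene was 3.12-fold higher (95% interval 2.70 to 3.62, log2 fold change 1.64 ± 0.11, DESeq2 q of 8.94e-50). Within the 4 pairs the log2 ratio ranged from 1.46 to 1.81.

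BBC3 encodes PUMA and PMAIP1 encodes NOXA, 2 BH3-only proteins known to be made in response to stress. The normalized counts of BBC3 (chromosome 19, 47220822 to 47232766) were 62.3, 78.0, 57.5 and 77.0 in the 4 Control and 109.7, 155, 190.4 and 146 in the 4 OGTi replicates. The groups did not overlap, and OGTi replicate 1 was the closest to Control. The change was 2.16-fold (95% interval 1.55 to 3.0, log2 fold change 1.11 ± 0.24, DESeq2 q of 2.16e-05). PMAIP1 (chromosome 18, 59899996 to 59904305), whose product binds MCL1 by preference, stood at 422, 447, 584 and 458 normalized counts in Control replicates 1 to 4 and at 671, 837, 879 and 785 in OGTi replicates 1 to 4. Control replicate 3 was the highest of its group and still lay below every OGTi library, and the change was 1.66-fold (95% interval 1.43 to 1.94, log2 fold change 0.74 ± 0.11, DESeq2 q of 3.46e-10).

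BID, the BH3-only protein that CASP8 cleaves and that links the receptor route to mitochondria, was the BH3-only gene that fell. It went from 569.8 ± 58.5 to 418 ± 53.2 normalized counts (SD, n = 4 each, log2 fold change -0.45 ± 0.13, DESeq2 q of 0.00234). Pair 4 carried the largest fall, with a log2 ratio of -0.86 against -0.33 to -0.29 in the other pairs, and without replicate 4 the change was -0.31 with a q of 0.0907. BMF, which senses loss of attachment, averaged 151 ± 10.8 normalized counts in Control libraries and 196 ± 15.6 under OGTi. Its groups did not overlap, but its log2 fold change of 0.37 ± 0.18 missed the threshold in DESeq2 with the block (q of 0.0762). It passed in DESeq2 without the block (q of 0.031), and with the block in edgeR (q of 0.0294) and limma voom (q of 0.0358). Over all alternatives its q ranged from 0.0294 to 0.246. BAD, which is controlled by phosphorylation, had 1761 ± 97.1 and 1725 ± 229 normalized counts (log2 fold change -0.04, 95% interval -0.22 to 0.15). HRK, a gene best known from neurons, had 65.6 ± 27.6 and 72.6 ± 23.9 (log2 fold change 0.17, 95% interval -0.44 to 0.78), with libraries that spread from 39.9 to 101 in Control and from 40.2 to 96.4 in OGTi.

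**Figure D2:**
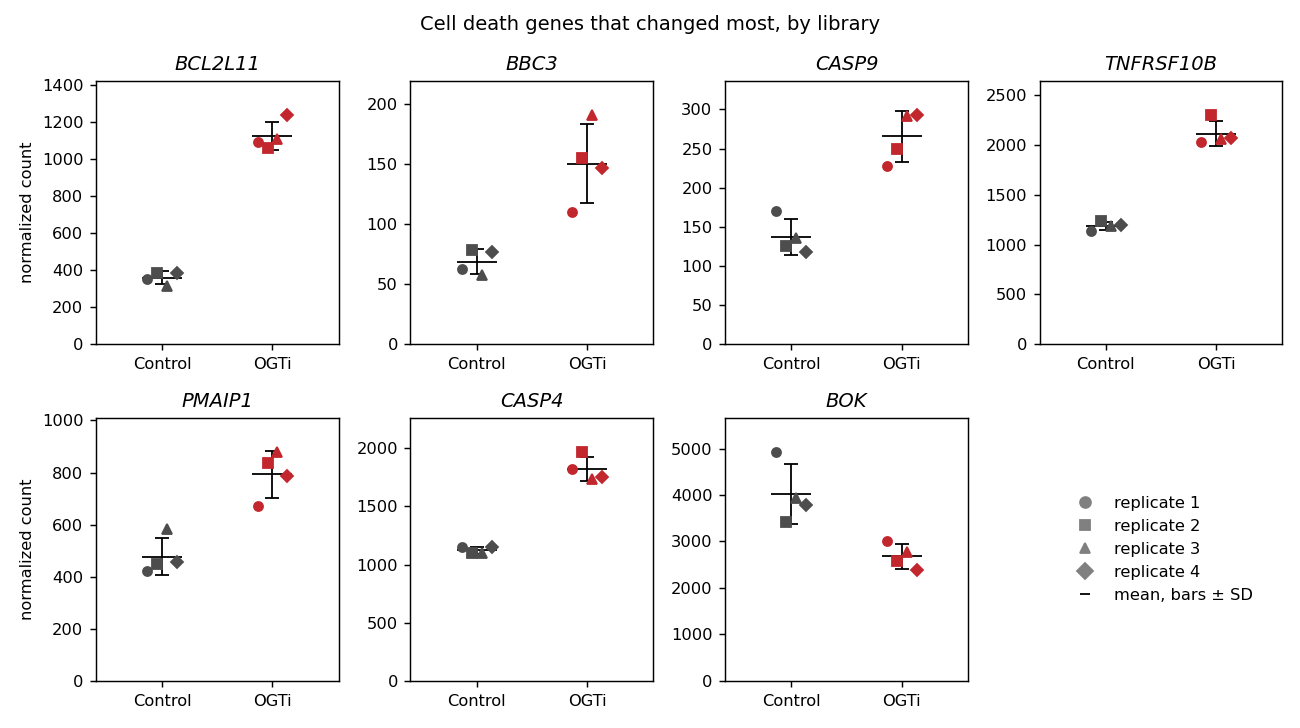
Normalized counts of the 7 genes called with a log2 fold change of at least 0.5 in size and the same direction in 4 pairs, with 1 point per library, a horizontal line for the mean and bars for the SD of 4 libraries. In the 6 genes that rose every OGTi library lies above every Control library, and in BOK every OGTi library lies below.

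Of the 4 anti-apoptotic BCL2 genes, 1 rose and 3 did not pass the test. MCL1, a short-lived protein that binds BIM and NOXA, went from 3209.7 ± 38.6 to 3754 ± 94.6 normalized counts (SD, n = 4 each). The groups did not overlap, the change was 1.17-fold (log2 fold change 0.23 ± 0.07, DESeq2 q of 0.00348), and without replicate 4 the change was 0.22 with a q of 0.0506. BCL2L1, which encodes BCL-XL, had 9162 ± 821 and 9244 ± 710.2 normalized counts, and the 95% interval of its log2 fold change ran from -0.11 to 0.14. BCL2L2, which encodes BCL-W, had 1079 ± 121 and 1054 ± 72.0 (log2 fold change -0.03, 95% interval -0.21 to 0.15). Its counts were fractional in all 8 libraries, and the read-through gene BCL2L2-PABPN1 lies over it on the same strand, so reads of these genes may be shared.

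BCL2, the founding member of the family, had 178, 303, 289.6 and 309.9 normalized counts in Control replicates 1 to 4 and 203, 166, 198 and 228 in OGTi replicates 1 to 4. Control replicate 1 was low and lay among the OGTi libraries, while the other 3 Control libraries lay above all of them. The log2 fold change was -0.42 ± 0.19 with a DESeq2 q of 0.0506, just above the threshold. In DESeq2 without the block the q was 0.0432, and without replicate 1 the change was -0.62 with a q of 0.00602. With the block the q was 0.0237 in edgeR and 0.0231 in limma voom, and edgeR without the block gave 0.0567. Over all alternatives the change of BCL2 ranged from -0.62 to -0.27 and its q from 0.00602 to 0.358.

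Of the 3 pore-forming genes, 2 fell and 1 did not pass the test. BOK (chromosome 2, 241551424 to 241574131), a BCL2-related protein that can form pores without the other members, had 4925, 3410.05, 3936 and 3791 normalized counts in Control replicates 1 to 4 and 3014, 2576, 2766 and 2384 in OGTi replicates 1 to 4. Control replicate 1 was the highest library and OGTi replicate 1 the highest of its own group, and the groups did not overlap. The OGTi level was 0.672 of the Control level (95% interval 0.604 to 0.748, log2 fold change -0.57 ± 0.08, DESeq2 q of 4.43e-12). BAX went from 1402 ± 126 to 1154 ± 105 normalized counts (log2 fold change -0.28 ± 0.09, q of 0.00686), with a q of 0.0818 without replicate 1 and of 0.0661 without replicate 4. BAK1, the other main executioner, had 1297 ± 54.0 and 1356 ± 125 (log2 fold change 0.06, 95% interval -0.12 to 0.25).

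BCL2L13, a BCL2-like protein of the outer mitochondrial membrane known as a mitophagy receptor, went from 917 ± 58.3 to 1139 ± 46.2 normalized counts (log2 fold change 0.31 ± 0.10, DESeq2 q of 0.00294). Its groups did not overlap, and without replicate 3 the change was 0.26 with a q of 0.0619. BCL2L12 had 607 ± 43.8 and 656 ± 102 normalized counts (log2 fold change 0.10, 95% interval -0.12 to 0.32).

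Among the 4 death receptors, 1 rose and 3 did not pass the test. TNFRSF10B (chromosome 8, 23020133 to 23069031, minus strand) encodes DR5, a receptor for the ligand TRAIL that carries a death domain. Its normalized counts were 1137, 1235, 1187 and 1195 in Control replicates 1 to 4 and 2029.7, 2299, 2059 and 2075 in OGTi replicates 1 to 4. The groups were far apart, with OGTi replicate 2 the highest, and the change was 1.78-fold (95% interval 1.59 to 1.99, log2 fold change 0.83 ± 0.08, DESeq2 q of 2.28e-23). The 4 pairs gave log2 ratios of 0.79 to 0.90, the narrowest range among the 6 genes that rose by at least 0.5. Its counts were fractional in 6 libraries.

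The other TRAIL receptors were near the limit of detection or did not pass the test. TNFRSF10A, which encodes the death receptor DR4, stood at 8.88 ± 2.0 normalized counts in Control libraries and 16.7 ± 6.17 under OGTi (log2 fold change 0.86 ± 0.64, DESeq2 q of 0.273), so a change was not detectable at this depth. The decoy receptors bind TRAIL without passing on the death signal. TNFRSF10C had 9.81 ± 3.91 and 3.62 ± 2.16 normalized counts, with every OGTi library below every Control library and a wide 95% interval of -3.30 to 0.23 (q of 0.156). TNFRSF10D, the more abundant decoy, had 394 ± 34.7 and 345 ± 80.9 (log2 fold change -0.22, 95% interval -0.49 to 0.06). The 4 TRAIL receptor genes lie within 1 stretch of chromosome 8, between 23020133 and 23225102 (GRCh38).

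TNFRSF1A, the main TNF receptor, averaged 2969 ± 162 normalized counts in Control libraries and 2731 ± 62.6 under OGTi. Its groups did not overlap, and its log2 fold change of -0.12 ± 0.08 did not pass the test (DESeq2 q of 0.191). FAS, the receptor of FAS ligand, had 85.7 ± 9.44 and 104 ± 20.9 normalized counts (log2 fold change 0.27, 95% interval -0.23 to 0.76). Pair 2 went against the other pairs for FAS, with a log2 ratio of -0.32 against 0.35 to 0.61. FAS counts were fractional in 7 libraries, and STAMBPL1 overlaps it on the same strand.

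Of the 3 genes of the receptor complex, 2 rose. TRADD, the adaptor of TNFRSF1A, went from 448 ± 56.1 to 575 ± 37.6 normalized counts (log2 fold change 0.36 ± 0.12, DESeq2 q of 0.00649) with groups that did not overlap. FADD, the adaptor that carries CASP8 to the receptors, went from 1349.9 ± 95.6 to 1605 ± 215 (log2 fold change 0.24 ± 0.09, q of 0.012) with groups that overlapped. Both calls were lost in some DESeq2 fits that left out 1 replicate. The q of TRADD was 0.0604, 0.0602 and 0.0731 without replicates 2, 3 and 4, with changes of 0.347, 0.338 and 0.333. That of FADD was 0.0984, 0.0633 and 0.0568 without replicates 1, 2 and 3, with changes of 0.197, 0.252 and 0.245. CFLAR, which encodes the CASP8 inhibitor cFLIP, had 1436 ± 124 and 1554 ± 169.8 normalized counts (log2 fold change 0.11, 95% interval -0.06 to 0.28), and its counts were fractional in all 8 libraries.

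Of the 6 caspase genes, 2 rose and 4 did not pass the test. CASP9 (chromosome 1, 15490832 to 15526534), the initiator caspase of the apoptosome, stood at 170.5, 125, 136 and 118 normalized counts in Control replicates 1 to 4 and at 228, 250.1, 292 and 292 in OGTi replicates 1 to 4. Control replicate 1 was the highest and OGTi replicate 1 the lowest of their groups, so pair 1 had a log2 ratio of 0.42 against 0.998 to 1.31 in the other pairs. The groups did not overlap, and the change was 1.94-fold (95% interval 1.5 to 2.51, log2 fold change 0.96 ± 0.19, DESeq2 q of 3.0e-06).

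CASP4 (chromosome 11, 104942866 to 104969366) encodes an inflammatory caspase that binds bacterial lipopolysaccharide in the cytosol and cleaves gasdermin D, and it belongs to pyroptosis more than to apoptosis. Control replicates 1 to 4 held 1152, 1098, 1101 and 1149 normalized counts of it, and OGTi replicates 1 to 4 held 1820.4, 1968, 1740.1 and 1757. Both groups were tight and far apart, and the change was 1.62-fold (95% interval 1.44 to 1.82, log2 fold change 0.69 ± 0.09, DESeq2 q of 1.11e-14). Its start-site sequence, shown above, has a far lower share of G and C than that of CASP9.

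The initiator caspases of the receptor route did not pass the test. CASP8 averaged 429.7 ± 16.9 normalized counts in Control libraries and 387 ± 59.6 under OGTi (log2 fold change -0.16, 95% interval -0.43 to 0.11), and CASP10 had 239.9 ± 29.2 and 281 ± 22.6 (log2 fold change 0.23, 95% interval -0.08 to 0.55). CASP2, an initiator activated by the PIDDosome, had 3256 ± 137 and 3025 ± 246 (log2 fold change -0.11, 95% interval -0.26 to 0.04), and the executioner CASP6 had 293 ± 39.3 and 275 ± 28.1 (log2 fold change -0.09, 95% interval -0.40 to 0.22). Counts of these 4 genes were fractional in 4 to 8 libraries, so some of their reads were shared with other genes.

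Among the apoptosome and inhibitor of apoptosis (IAP) genes, 2 of 4 fell. APAF1, the scaffold of the apoptosome, went from 831 ± 84.6 to 646 ± 57.7 normalized counts (log2 fold change -0.36 ± 0.11, DESeq2 q of 0.00372), the opposite direction to its partner CASP9. The lowest Control library (729) lay just under the highest OGTi library (730.2), and the q was 0.059 without replicate 2 and 0.0678 without replicate 3. BIRC2 encodes cIAP1, a ubiquitin ligase of the TNF receptor complex that restrains RIPK1. Its counts were 2062, 1842, 2967 and 2910.1 in Control and 1543.5, 1555, 1904.5 and 2242 in OGTi replicates 1 to 4.

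For BIRC2, replicates 3 and 4 were higher than replicates 1 and 2 under both treatments and the groups overlapped, but within each of the 4 pairs the OGTi library was lower, by log2 ratios of -0.64 to -0.24. With the replicate block the log2 fold change of BIRC2 was -0.42 ± 0.09 (DESeq2 q of 6.17e-06). Without the block it was -0.43 ± 0.16 (DESeq2 q of 0.0208), and edgeR without the block gave a q of 0.0402. XIAP, which inhibits CASP9 and executioner caspases directly, had 1769 ± 93.4 and 1866 ± 223 normalized counts (log2 fold change 0.07, 95% interval -0.10 to 0.24). DIABLO, the mitochondrial protein that antagonizes XIAP, had 1583 ± 91.5 and 1806 ± 211 (log2 fold change 0.18 ± 0.09, q of 0.0882). Without replicate 1 the change of DIABLO was 0.24 with a q of 0.0493.

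**Figure D3:**
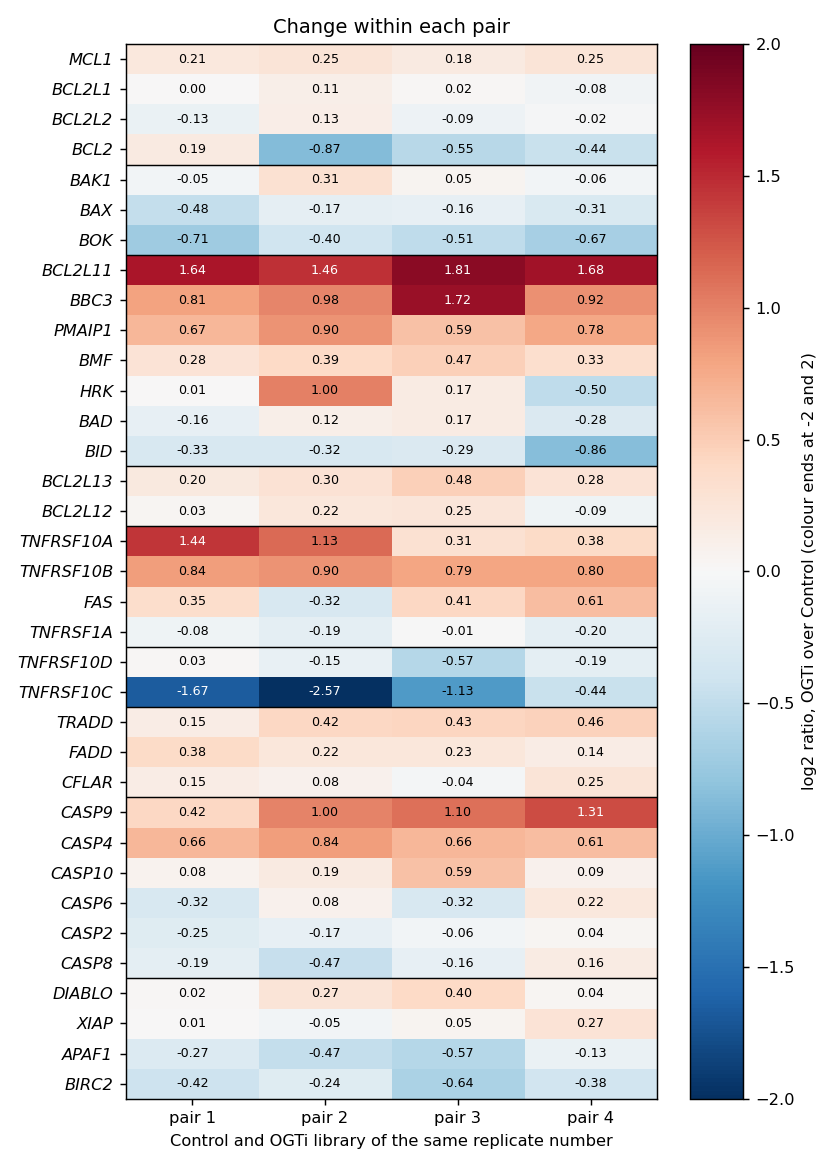
Log2 ratio of OGTi over Control within each of the 4 pairs of libraries with the same replicate number, for the 35 tested genes in the order of their roles, with red for higher and blue for lower. The cells for BCL2L11 (1.46 to 1.81) and TNFRSF10B (0.79 to 0.90) are even across pairs, whereas BCL2 and HRK are among the genes that change sign between pairs.

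The 20 genes that were not called differed in how tightly they were measured. For 13 of them the 95% interval of the log2 fold change lay within 0.5 of no change on either side, BCL2L1, BAK1, XIAP and CASP2 among them. For the other 7, which were BCL2, BMF, HRK, TNFRSF10A, TNFRSF10C, FAS and CASP10, the interval reached past 0.5, so a change of that size was not shown to be absent.

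Levels were compared between genes as normalized counts per kb of the longest coding transcript. BCL2L1 had the highest level of the 35 genes, at 2852 ± 256 per kb in Control and 2878 ± 221 in OGTi libraries (SD, n = 4 each), and it kept the first rank when the union of exons or the MANE Select transcript was used as length. Among the anti-apoptotic genes the Control order by level per kb was BCL2L1, MCL1 (813 ± 9.76), BCL2L2 (302 ± 34.0) and BCL2 (36.2 ± 8.30), and no neighbours in this order overlapped in mean ± SD. The order was the same with all 3 lengths. BCL2L1 made up 71.2% ± 1.78 of the summed anti-apoptotic level per kb in Control and 69.3% ± 1.87 in OGTi libraries, and MCL1 made up 20.4% ± 1.6 and 23.0% ± 1.53.

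Of the summed BH3-only level per kb, BAD made up 70.7% ± 1.88 in Control and 61.2% ± 2.81 in OGTi libraries. The share of BCL2L11 went from 3.23% ± 0.26 to 9.04% ± 1.48 and that of PMAIP1 from 11.7% ± 2.17 to 17.2% ± 1.68, while that of BID went from 10.6% ± 0.92 to 6.92% ± 0.81. BCL2L11 thus rose from 69.5 ± 6.50 to 217 ± 14.8 per kb and stayed below the level of BAD per kb (1491 ± 198 in OGTi). BOK led the pore-forming genes by level per kb, with 1529 ± 246 in Control, followed by BAX (1032 ± 93.0) and BAK1 (586 ± 24.4), but this order depended on the length. With the MANE Select length BAX came before BOK, at 1763 against 1529 per kb, and with the union of exons BAK1 came before BAX, at 586 against 542 per kb.

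TNFRSF1A supplied 80.3% ± 0.56 of the summed death receptor level per kb in Control and 68.0% ± 1.39 in OGTi libraries, and TNFRSF10B supplied 19.1% ± 0.58 and 31.3% ± 1.37. TNFRSF10A and FAS had the lowest levels per kb in Control, at 3.30 ± 0.74 and 5.20 ± 0.57. The level of FAS depends on the length chosen, since its longest transcript has 16484 bases and the MANE Select transcript 3696, which gave 23.2 per kb. CASP4 held rank 6 among the 35 genes by level per kb in Control with the longest transcript and rank 18 with the union of exons. The shares were computed with the longest coding transcript only, and their SDs do not cover the choice of length. With the union of exons the Control level of TNFRSF1A was 706 per kb against 1248, and that of TNFRSF10B was 237 against 297. These shares and levels are descriptions and were not tested.

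**Figure D4:**
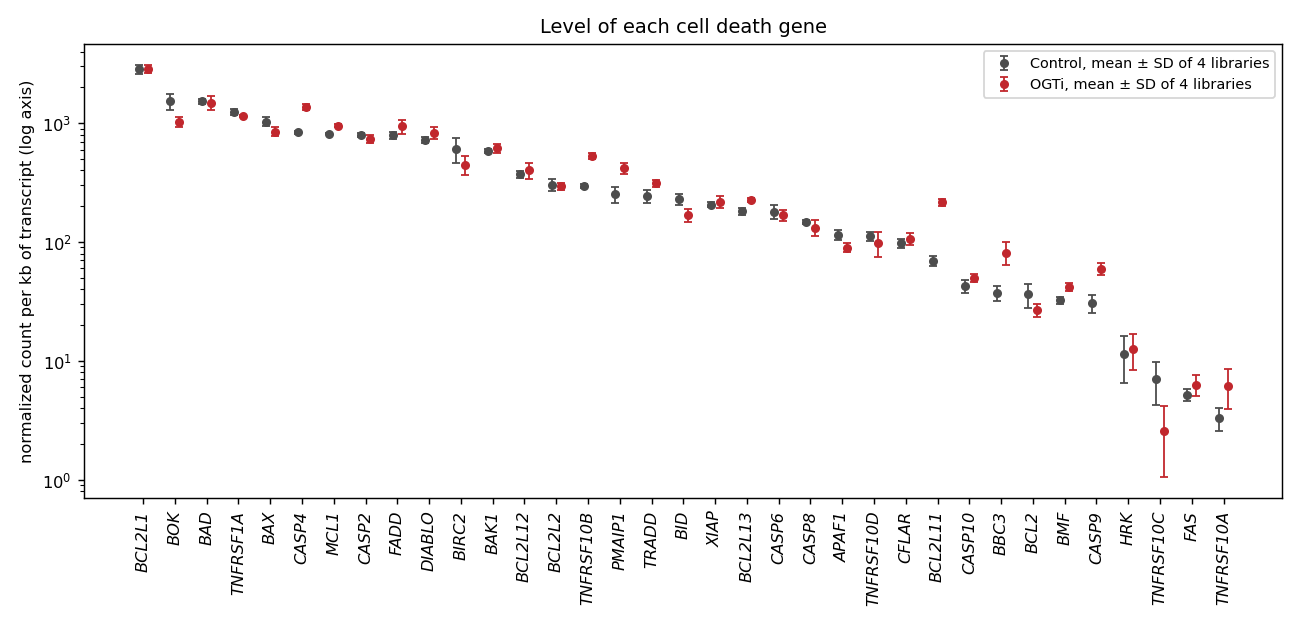
Level of the 35 tested genes in Control and OGTi libraries as normalized counts per kb of the longest coding transcript, on a log axis and ordered by the Control level, with points for means and bars for the SD of 4 libraries. BCL2L1 is the highest at 2852 per kb in Control, and BCL2L11 shows the widest step between the groups among genes above 10 per kb.

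Outside the 36 genes, 40 other genes of cell death were listed by name, 35 were present in the files and 31 had a q. Of these, 7 were called higher (22.6%, against 22.7% of all genes) and 3 lower (9.68%, against 24%). MLKL, the executioner of necroptosis, went from 108 ± 24.3 to 226 ± 51.8 normalized counts (log2 fold change 1.07 ± 0.18, DESeq2 q of 5.65e-08). TNFRSF1B, the second TNF receptor, went from 1186 ± 138 to 2259 ± 217 (0.93 ± 0.08, q of 7.72e-28), and TNFRSF21, which encodes the death receptor DR6, went from 889 ± 78.1 to 1364 ± 198 (0.61 ± 0.10, q of 6.70e-09). In these 3 genes all OGTi libraries lay above all Control libraries.

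HTRA2 and ENDOG, mitochondrial proteins set free during apoptosis, had log2 fold changes of 0.65 ± 0.11 (DESeq2 q of 6.94e-08) and 0.65 ± 0.18 (q of 0.00122), and the change of ENDOG was 0.45 with a q of 0.0663 without replicate 2. BIRC5 encodes survivin, an IAP family member that acts in cell division. Its normalized counts were 4427, 4131, 4261 and 4137 in Control replicates 1 to 4 and 2381, 2439, 2233 and 1853 in OGTi replicates 1 to 4. Every OGTi library lay below every Control library, and the log2 fold change was -0.94 ± 0.08 (q of 1.93e-28).

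Transcripts of 4 factors known to act on genes of the list were read beside them. DDIT3, which encodes the stress factor CHOP and is known to act on TNFRSF10B and BCL2L11, stood at 619, 677, 410.3 and 660.5 normalized counts in Control replicates 1 to 4 and at 1246, 1729.7, 1722 and 1233 in OGTi replicates 1 to 4. The groups did not overlap (log2 fold change 1.33 ± 0.26, DESeq2 q of 1.55e-06). ATF4, which acts upstream of DDIT3, rose by 0.72 ± 0.08 (q of 2.10e-16). FOXO3, a factor known to act on BCL2L11 and BBC3, had a log2 fold change of 0.06 (95% interval -0.12 to 0.24), and E2F1, which acts on several BH3-only genes and on APAF1, had 0.09 (95% interval -0.07 to 0.25). Whether any of these factors had a part in the changes was not tested.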

How the data were processed

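The authors prepared poly-A enriched, stranded libraries, aligned the paired reads to hg38 with Bowtie2 2.3.5.1 and counted them per gene with RSEM 1.3.1 with a strand setting. The files deposited by the authors, 1 per library, hold expected counts, that is estimated counts in which reads with several alignments are shared between genes, not scaled for depth. Between 12.9% and 16.3% of genes per library had a fractional value. A comparison table made by the authors with DESeq2 1.36.0 (means, log2 fold changes, standard errors, Wald statistics and p-values) was not used.

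Expected counts were rounded, genes with a total under 10 were left out, and the 8 libraries entered a DESeq2 1.42.0 model (Wald test, R 4.3.3) with median-of-ratios size factors, replicate number as a block, independent filtering and no shrinkage. The block follows the study's methods. Deviations from the group mean correlated between libraries of the same number with r of 0.372, 0.391, 0.165 and 0.327 for replicates 1 to 4 (across 10994 genes, which are not independent replicates). Control replicate 3 was, however, closer to OGTi replicate 4 (0.343), and OGTi replicate 3 was closer to Control replicate 4 (0.255). These correlations thus did not single out pairs 3 and 4 as labelled. No library was a copy of another (chi-square divided by its degrees of freedom, 8.66 to 36.2). Normalized counts are counts divided by size factors. Log2 ratios of pairs used a pseudocount of 0.5.

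The genes, their grouping by role and the list of other cell death genes were chosen with earlier results of these data known. Genes called with an absolute log2 fold change of at least 0.5 and the same direction in 4 pairs are given per library, as are BCL2, BIRC2, BIRC5 and DDIT3, chosen after their values were seen. Other cell death genes were named when called with a change of at least 0.5 and, on average, 100 or more normalized counts, and 4 factors and OGT whatever their values. Some genes of the lists are not reported here. Alternatives were DESeq2 with no block, edgeR 4.0.16 quasi-likelihood with and without the block, limma 3.58.1 voom on unrounded counts, TMM and upper-quartile factors, other filters and leaving out each replicate, and for levels per kb other transcript lengths. Lengths and positions came from GENCODE 44 on GRCh38. The fits were also run on simulated counts that held no replicate effect, so that run does not bear on the block.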

Additional observations from a re-analysis of the deposited data

Results flagged for a closer look

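A library far from the other 3 of its group was found in 5 of 96 groups of 4 libraries examined, where chance gives about 1 in 20. The gap of that library to its nearest neighbour, divided by the range of the group, had to exceed the 95% critical value of Dixon's test. For BCL2 in Control the ratio was 0.845, with Control replicate 1 at 178 normalized counts against 289.6 to 309.9 in the others. For BAK1 in OGTi it was 0.985, with replicate 2 at 1544 against 1291 to 1295. For TNFRSF10B in OGTi it was 0.834, again with replicate 2 high, at 2299 against 2029.7 to 2075, and without replicate 2 the gene stayed called. HTRA2 in OGTi gave 0.842, with replicate 1 at 981.5 against 770.4 to 803.7. On the first principal component of the Control libraries the ratio was 0.845, with replicate 3 at -22.3 against -17.4 to -16.5.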

How the results depend on the processing

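Of the 15 called genes of the list, 8 (BCL2L11, BBC3, PMAIP1, BOK, TNFRSF10B, CASP4, CASP9 and BIRC2) were called under all 12 alternatives. The other 7 lost the call under at least 1 of them, mostly when a replicate was left out. How many of all 6541 called genes kept their call was not counted, so these numbers describe the list only. Over the leave-one-out fits the genes of the list called higher numbered 7 to 10 and those called lower 3 to 5, against 10 and 5, the other cell death genes 6 to 7 and 2 to 3, against 7 and 3, and all genes 5127 to 5690, against 6541. With the replicate block removed DESeq2 called 11 higher and 6 lower, adding BMF and BCL2 (q of 0.031 and 0.0432). With the block kept, edgeR and limma voom also called 11 higher and 6 lower, BMF and BCL2 among them. The other cell death genes called lower numbered 5 with no replicate block, 6 with edgeR and the block, 5 with edgeR without it, 5 with limma voom and 5 with at least 10 counts in at least 4 libraries, against 3. FADD lost its call with edgeR without the block (q of 0.0581). The sign turned, in genes that were not called, for BCL2L2 (0.006), BAD (0.004) and FOXO3 (-0.044) without replicate 1, for BCL2L1 (-0.018), BAK1 (-0.02) and HRK (-0.114) without replicate 2, and for BAD (0.043) without replicate 4, and over the leave-one-out fits these genes ranged from -0.081 to 0.006 (BCL2L2), -0.11 to 0.043 (BAD), -0.044 to 0.115 (FOXO3), -0.018 to 0.043 (BCL2L1), -0.02 to 0.102 (BAK1) and -0.114 to 0.403 (HRK). The causes were not tested. No scaling moved the median log2 fold change of all genes past 0.015. The level per kb moved by more than 1 SD for 24 of 35 genes with the union of exons, and for 12 of 35 with the MANE Select transcript, a length chosen after seeing the data. Depth limits TNFRSF10A, TNFRSF10C and BIK, and p-values measure the spread between cultures of 1 line.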
